A study of Homo sapiens with 6 samples.

Results

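The genes described here encode steps of the cascade that runs from RAS through RAF and MEK to ERK. They are HRAS, NRAS, ARAF, BRAF, MAP2K1, MAP2K2 and MAPK3, 7 genes chosen by name, and a gene was measured where a probe set of the array is annotated with its symbol alone. This held for 5 of the 7 (HRAS, ARAF, MAP2K1, MAP2K2 and MAPK3, each with 1 probe set) among 18404 genes in all. NRAS and BRAF were not analysed here. RNA came from H661, a human large cell lung carcinoma line, in 2 groups of 3 arrays each. SALL4-sh cells were transduced with a lentivirus that carries a short hairpin RNA against SALL4, a zinc finger transcription factor of embryonic stem cells, and Scr-sh cells with one that carries a scrambled hairpin. From each sample, 5 µg of total RNA went into biotin-labelled cRNA. Only 1 hairpin against SALL4 was used, so loss of SALL4 and other effects of that hairpin cannot be told apart. The sources used here state no time from transduction to RNA extraction. Nor do they say whether separate cultures stand behind the 3 arrays of each group, and p-values therefore reflect only how far these arrays spread, which may be technical.

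RAS proteins are small GTPases at the inner face of the plasma membrane that are switched on when receptors such as EGFR and IGF1R recruit exchange factors. RAS bound to GTP recruits RAF kinases, RAF phosphorylates MEK, and MEK phosphorylates ERK, which acts on kinases and transcription factors in the cytoplasm and nucleus. Activating mutations in this cascade are common in lung cancer. The signal itself is carried by GTP loading and phosphorylation, which an expression array does not measure.

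Levels are normalized intensities, not logged, with a floor of 8 at which 38.8% to 40.4% of the probe sets on an array stood. Log2 changes are SALL4-sh over Scr-sh, each with the standard error of limma after the ± sign where one is given, and a gene was called at an adjusted p under 0.05. All 5 members lay above this floor on all 6 arrays. SALL4 itself, the target of the hairpin, had intensities of 33.6, 31.9 and 26.5 in SALL4-sh, against 126, 104 and 130 in Scr-sh (log2 change -1.97 ± 0.17, adjusted p = 0.000644). Over the 13803 genes tested, limma called 821 higher and 764 lower in SALL4-sh, 5.95% and 5.54% of the genes, or 11.5% in all. The median log2 change of these genes was 0.02. Of 15 tested genes of an interferon response list, 11 were lower and 0 higher, and the summed intensity of the 17 measured genes of that list was 246 to 340 in SALL4-sh and 1768 to 3842 in Scr-sh. The part of this response in the results below was not tested. EPCAM, an epithelial surface protein, was bright on every array, at 590 to 1113 over both groups, whereas KRT8, an epithelial keratin, lay near the floor at 8 to 11.1. Of 6 tested epithelial markers 1 was higher and none lower, namely CDH1, the adhesion protein E-cadherin, with 17.2, 16.1 and 17.3 in SALL4-sh and 10.5, 8 and 8.68 in Scr-sh (log2 change 0.91, adjusted p = 0.00965). Of 4 tested mesenchymal markers 1 was lower and none higher, namely ZEB2, a repressor of E-cadherin, with 190, 172 and 149 in SALL4-sh and 327, 307 and 310 in Scr-sh (log2 change -0.89, adjusted p = 0.00892). Their part in the results below was not tested either. Among other cell types, 4 of 4 endothelial markers and 3 of 6 measured leukocyte markers stood at the floor throughout. Another leukocyte marker, CD68, lay well above it at 30.5 to 71.6 over both groups. Of the 3 tested leukocyte markers none was called.

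Of the 5 measured members, ARAF was lower and MAP2K1 was higher in SALL4-sh, and HRAS, MAP2K2 and MAPK3 did not pass the test. That is 2 of 5, where 11.5% of all tested genes were called, and with 5 genes this share is a description only. ARAF stood at 0.547 of its Scr-sh level and MAP2K1 at 1.71 times its Scr-sh level. The products of these genes act one after the other in the cascade, and their RNAs changed in opposite directions. Both calls rested on leaving weak genes out of the test, and both held when only genes at the floor on all arrays were left out (adjusted p of 0.0234 for ARAF and 0.0440 for MAP2K1). With every gene in the fit, limma called 1.18% of genes higher and 1.33% lower, and neither member passed (adjusted p of 0.0666 for ARAF and 0.119 for MAP2K1).

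**Figure D1:**
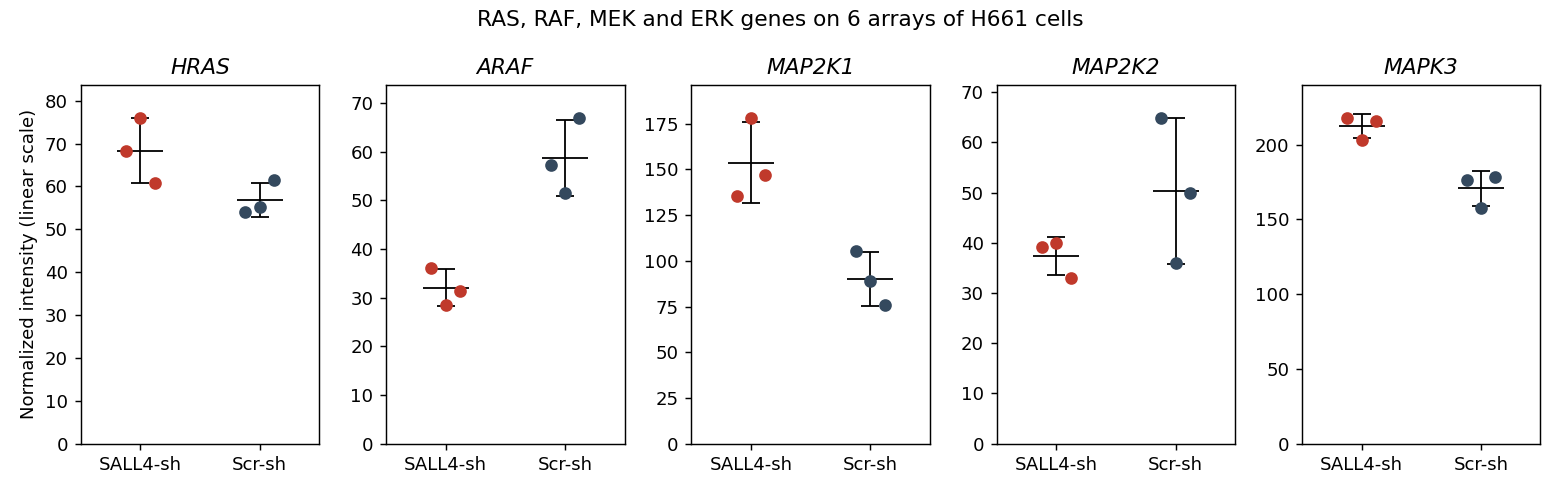
Normalized intensity (linear scale, vertical axis from 0) of HRAS, ARAF, MAP2K1, MAP2K2 and MAPK3 on each of the 6 arrays of H661 cells. Points are single arrays, and the bar and whiskers show each group's mean and its SD (n = 3). The SALL4-sh points of ARAF lie below its Scr-sh points, those of MAP2K1 and MAPK3 lie above, and the groups of HRAS and MAP2K2 overlap.

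HRAS, a RAS GTPase that is farnesylated and palmitoylated to reach the membrane, had intensities of 68.2, 76.1 and 60.8 in SALL4-sh and 54.1, 55.1 and 61.5 in Scr-sh. The lowest SALL4-sh value lay below the highest Scr-sh value, so the groups overlapped by 1 array on each side. The means were 68.3 ± 7.63 in SALL4-sh and 56.9 ± 4.02 in Scr-sh (SD, n = 3 each). The fold over Scr-sh was 1.20, and its 95% confidence interval (CI) ran from 0.931 to 1.54 (log2 change 0.26, adjusted p = 0.379). Both a higher and a slightly lower level lie within this interval.

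ARAF encodes one of the RAF kinases, which bind GTP-loaded RAS and phosphorylate MEK. Its intensities were 36.2, 28.6 and 31.4 in SALL4-sh, against 57.2, 51.6 and 67.0 in Scr-sh. Each SALL4-sh array lay below each Scr-sh array, as was the case for 13.1% of the genes tested (28.9% counting both directions). The means were 32.0 ± 3.84 in SALL4-sh and 58.6 ± 7.80 in Scr-sh (SD, n = 3 each), and the gap between them was larger than the spread within either group. The fold was 0.547 (95% CI 0.417 to 0.718, log2 change -0.87 ± 0.17, adjusted p = 0.0141), and the exact two-sided permutation test of the 6 values gave p = 0.1, the smallest that 3 against 3 arrays allow. Of the tested genes, 8.50% had a change at least as large. Without SALL4-sh replicate 2, SALL4-sh replicate 3 or Scr-sh replicate 3 the adjusted p of limma was 0.0768, 0.0656 and 0.0644, in that order, with log2 changes of -0.79, -0.86 and -0.77.

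MAP2K1 encodes MEK1 and MAP2K2 encodes MEK2, the dual-specificity kinases that activate ERK by phosphorylating a threonine and a tyrosine. MAP2K1 had intensities of 136, 178 and 147 in SALL4-sh, against 105, 88.7 and 75.9 in Scr-sh. All SALL4-sh arrays stood above all Scr-sh arrays, as in 15.7% of the genes tested. The means were 154 ± 22.2 in SALL4-sh and 89.9 ± 14.7 in Scr-sh (SD, n = 3 each), a fold of 1.71 (95% CI 1.28 to 2.29, log2 change 0.78, log2 standard error 0.19). The adjusted p was 0.0285 from limma, and the exact two-sided permutation test again gave p = 0.1. Changes at least as large were seen in 11.0% of the tested genes. The call was lost without any 1 of the 3 SALL4-sh arrays and without Scr-sh replicate 2 or 3 (adjusted p of 0.0628 to 0.121), and was held without Scr-sh replicate 1 (adjusted p = 0.0387). The log2 change ran from 0.66 to 0.89 over the 6 arrays left out in turn, always higher in SALL4-sh.

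MAP2K2 had intensities of 39.2, 40.0 and 33.0 in SALL4-sh and 64.9, 35.9 and 49.9 in Scr-sh. Scr-sh replicate 2 lay among the SALL4-sh values, and the other Scr-sh arrays lay above all of them. The fold over Scr-sh was 0.763 (95% CI 0.537 to 1.08, log2 change -0.39, adjusted p = 0.338). Without Scr-sh replicate 2 the log2 change was -0.61 (adjusted p = 0.0834), and without Scr-sh replicate 1 it was -0.18.

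The pair of MEK genes was also compared within each array, which removes differences in overall brightness between arrays. The log2 ratio of MAP2K1 over MAP2K2 was 1.79, 2.16 and 2.15 in SALL4-sh, against 0.70, 1.30 and 0.61 in Scr-sh. Every SALL4-sh ratio exceeded every Scr-sh ratio. The means were 2.03 ± 0.21 in SALL4-sh and 0.87 ± 0.38 in Scr-sh (SD, n = 3 each), so that the ratio of MAP2K1 to MAP2K2 was 2.24 times that of Scr-sh in SALL4-sh (difference 1.17 on the log2 scale, exact two-sided permutation test p = 0.1, the smallest possible). With 1 array left out the difference was 1.03 to 1.38. The size of the ratio itself depends on the probes, and a changed ratio shows unequal change of the pair without saying that either one stayed constant. This was the only ratio formed of 3 that were planned, since those of HRAS to NRAS and of BRAF to ARAF need members that were not analysed.

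**Figure D2:**
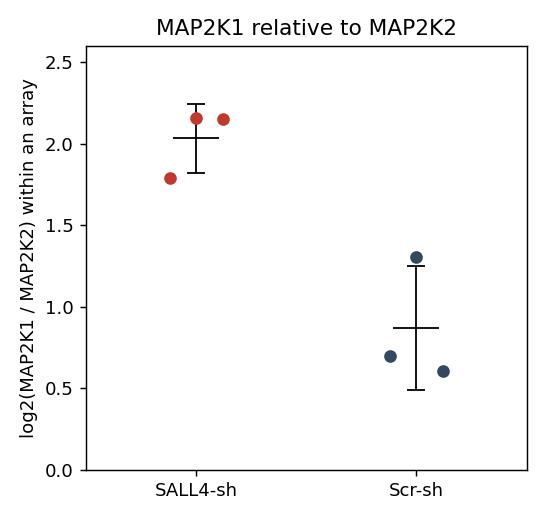
Log2 ratio of the intensities of MAP2K1 and MAP2K2 within each array (vertical axis), for the 3 SALL4-sh and the 3 Scr-sh arrays. Points are single arrays, and bars with whiskers are the mean and SD, 2.03 ± 0.21 in SALL4-sh and 0.87 ± 0.38 in Scr-sh.

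MAPK3 encodes ERK1, the kinase at the end of the cascade. Its intensities were 218, 203 and 216 in SALL4-sh and 176, 157 and 178 in Scr-sh. The groups did not overlap, with SALL4-sh above, as in 15.7% of the genes tested. The means of 212 ± 8.07 and 171 ± 11.6 (SD, n = 3 each), in SALL4-sh and Scr-sh, differed by more than the spread within either group. The fold over Scr-sh was 1.25 (95% CI 0.983 to 1.58, log2 change 0.32, adjusted p = 0.237, exact two-sided permutation test p = 0.1). Its unadjusted p was 0.0655, and 24.7% of the tested genes had an unadjusted p under 0.05.

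**Figure D3:**
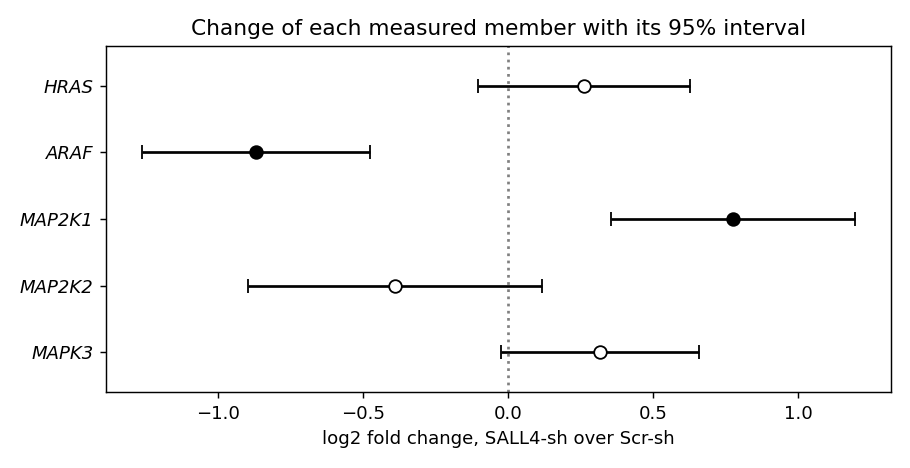
Log2 change, SALL4-sh relative to Scr-sh (horizontal axis), of the 5 measured members. Whiskers are 95% CIs from limma (n = 3 arrays per group), and filling marks an adjusted p under 0.05, ARAF at -0.87 and MAP2K1 at 0.78. The intervals of HRAS, MAP2K2 and MAPK3 include 0.

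The sequences around the start sites of ARAF, the member that was lower, of MAP2K1, the member that was higher, and of MAP2K2, its paralog, are given here because SALL4 binds DNA. Each runs from 250 bases before to 50 bases after the gene's start, 5′ to 3′ on the gene's strand, from RefSeq on GRCh38.p14. All 7 members were matched by symbol, and MAP2K1 and MAP2K2, which have 2 listed starts each, are shown at the gene's annotated start. Capitals mark matches on either strand to ATATT (AT-rich DNA bound by SALL4), GGGCGG (the GC box), CCGGAA (an ETS factor core) and CCAAT (the CCAAT box), none of which overlapped another motif in these sequences. The ARAF sequence lies at chrX:47560955-47561254 on the plus strand, that of MAP2K1 at chr15:66386662-66386961 on the plus strand and that of MAP2K2 at chr19:4124073-4124372 on the minus strand.
ARAF: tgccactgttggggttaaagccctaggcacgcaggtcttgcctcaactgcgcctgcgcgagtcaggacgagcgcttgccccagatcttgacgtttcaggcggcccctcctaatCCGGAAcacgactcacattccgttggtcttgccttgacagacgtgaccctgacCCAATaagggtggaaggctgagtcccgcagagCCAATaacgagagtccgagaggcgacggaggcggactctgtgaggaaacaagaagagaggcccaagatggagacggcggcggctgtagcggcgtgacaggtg
MAP2K1: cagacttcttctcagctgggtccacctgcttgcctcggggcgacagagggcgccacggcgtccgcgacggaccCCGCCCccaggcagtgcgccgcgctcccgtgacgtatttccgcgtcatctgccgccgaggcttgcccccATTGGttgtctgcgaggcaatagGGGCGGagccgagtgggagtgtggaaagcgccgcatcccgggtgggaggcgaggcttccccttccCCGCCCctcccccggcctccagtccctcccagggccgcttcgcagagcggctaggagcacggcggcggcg
MAP2K2: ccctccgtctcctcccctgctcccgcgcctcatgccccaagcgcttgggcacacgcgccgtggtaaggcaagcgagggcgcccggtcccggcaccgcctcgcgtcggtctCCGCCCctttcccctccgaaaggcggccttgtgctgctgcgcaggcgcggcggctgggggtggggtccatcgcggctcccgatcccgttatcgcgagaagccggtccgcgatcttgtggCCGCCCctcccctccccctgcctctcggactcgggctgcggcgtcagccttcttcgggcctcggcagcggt

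ATATT was found in 0 of the 7 members' sequences and in 23.0% of all 35116 start sequences of this length. GGGCGG stood 3 times in MAP2K1, 2 times in MAP2K2 and 8 times in MAPK3, and was not in the ARAF window. It was found in 5 of the 7 members and in 45.0% of all start sequences. CCGGAA occurred 1 time in ARAF, and was found in 3 of the 7 members and in 17.2% of all start sequences. CCAAT occurred 2 times in ARAF and 1 time in MAP2K1, and was found in 4 of the 7 members and in 34.6% of all. The GC content was 60.3% in ARAF, 72.0% in MAP2K1, 73.7% in MAP2K2, 80.7% in MAPK3, 78.0% in HRAS, 63.0% in BRAF and 57.3% in NRAS, where the median of all start sequences was 58.7%. A match is a run of letters and not a measured binding site, and SALL4 binding to these genes was not measured in these data.

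Genes that load, process, scaffold or follow the cascade were counted in 9 lists with 117 measured genes, of which 107 entered the test. SALL4-sh had higher levels of 11 and lower levels of 10, together 19.6%, where 11.5% of all tested genes were called. Their median log2 change was -0.04, against 0.02 over all tested genes. With every gene in the fit, 6 of the 117 measured genes passed, where 2.51% of all genes did. All 6 were among the 21 genes called with the filter. These were SOS2, CUL3, IQGAP1, PPP1CC, ELK3 and MAPK9. When only genes at the floor on all arrays were left out, 18 of the 21 passed. SPRED2, ARRB1 and ETV1 did not pass there (adjusted p of 0.0697, 0.0663 and 0.0544). With each array left out in turn, 6 of the 21 passed every time (SOS2, IQGAP1, LAMTOR3, PPP1CC, ELK3 and MAPK9), and 15 were lost at least once. The number lost was 9, 12 and 12 without SALL4-sh replicates 1, 2 and 3, and 6, 4 and 9 without Scr-sh replicates 1, 2 and 3, in that order.

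**Figure D4:**
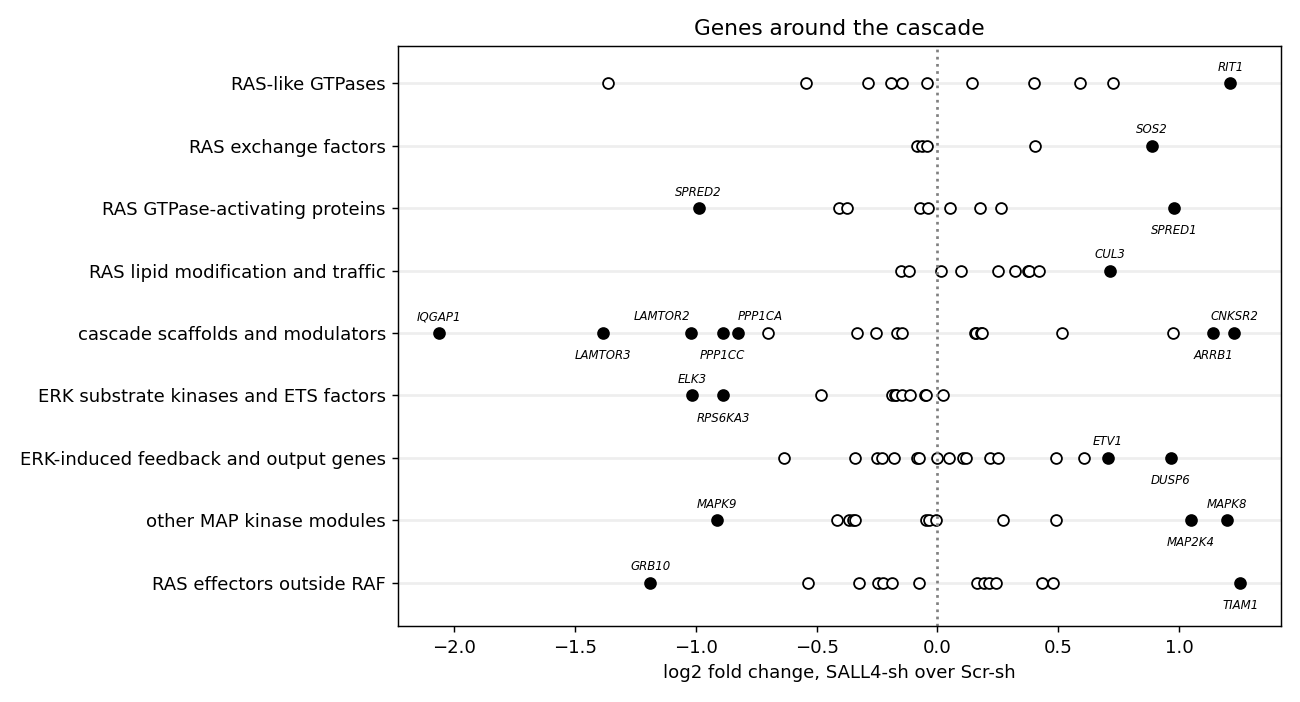
Log2 change, SALL4-sh relative to Scr-sh (horizontal axis), of the 107 tested genes of 9 lists around the cascade, 1 point per gene. Filled points with a name were called by limma (n = 3 arrays per group), 11 to the right of 0 and 10 to the left.

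Upstream of RAS, 1 of 5 tested exchange factors was higher and none was lower, where 11.5% of all tested genes were called. With 5 genes, this count is a description only. SOS2, which loads RAS with GTP at activated receptors, had intensities of 189, 172 and 176 in SALL4-sh, against 84.7, 109 and 97.9 in Scr-sh. The groups were far apart, with a log2 change of 0.89 ± 0.16 (adjusted p = 0.00983). Its paralog SOS1 had a log2 change of 0.41 that did not pass (adjusted p = 0.194). Of 9 tested GTPase-activating proteins and SPRED proteins, which act to switch RAS off, 1 was higher and 1 lower (22.2%, against 11.5% of all). SPRED1 and SPRED2, a pair of related proteins that bring neurofibromin to RAS, moved in opposite directions. SPRED1 had intensities of 72.6, 75.7 and 71.7 in SALL4-sh and 44.2, 39.4 and 29.4 in Scr-sh (log2 change 0.98, adjusted p = 0.0114). SPRED2 had 38.0, 71.3 and 42.8 in SALL4-sh and 112, 84.4 and 95.7 in Scr-sh (log2 change -0.99, adjusted p = 0.0316). With each of the 6 arrays left out in turn, the SPRED1 call was lost 3 times and the SPRED2 call 5 times (adjusted p up to 0.0727 and 0.142).

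Among 11 RAS-like GTPases, RIT1 was higher and none was lower (9.09%, against 11.5% of all tested genes). RIT1, a GTPase close to RAS that also signals to ERK, had intensities of 113, 89.7 and 122 in SALL4-sh, against 35.0, 52.2 and 54.1 in Scr-sh, a log2 change of 1.21 (adjusted p = 0.00830). Of 10 tested genes listed for lipid modification and traffic of RAS, 1 was higher and none lower (10.0%, against 11.5% of all tested genes). Their median log2 change was 0.29. The called gene was CUL3, the cullin of the ubiquitin ligase that uses LZTR1 to remove RAS-family proteins. It had a log2 change of 0.71 ± 0.15 (adjusted p = 0.0180). CUL3 is not itself a gene of lipid modification or traffic, and none of the other listed genes passed. ICMT and GOLGA7, which act in the methylation and palmitoylation of RAS, had log2 changes of 0.42 and 0.38 and did not pass (adjusted p of 0.224 and 0.184). Both were named after their values were seen.

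The scaffolds and modulators of the cascade held 2 higher and 5 lower genes of 18 tested, or 38.9%, against 11.5% of all tested genes. The median log2 change was -0.16. IQGAP1, a scaffold that binds RAF, MEK and ERK, had a log2 change of -2.07 (adjusted p = 0.000475), and it is listed in the study's signature of SALL4 knockdown in H661, so it is not independent evidence of a direction. LAMTOR3, known as MEK partner 1, had intensities of 14.8, 17.1 and 15.2 in SALL4-sh, against 42.9, 31.9 and 50.4 in Scr-sh (log2 change -1.39, adjusted p = 0.00342). LAMTOR2, its partner in the complex that holds MEK1 and ERK1 at late endosomes, had 18.9, 26.3 and 17.7 in SALL4-sh and 41.8, 35.7 and 49.3 in Scr-sh (log2 change -1.02, adjusted p = 0.0142). The groups of both LAMTOR genes were separate, with SALL4-sh below, as in 13.1% of the tested genes. PPP1CC, a catalytic subunit of protein phosphatase 1, of the kind that joins SHOC2 to remove an inhibitory phosphate from RAF, had a log2 change of -0.89 (adjusted p = 0.00800), and PPP1CA, another such subunit, one of -0.83 (adjusted p = 0.0225). PPP1CB, also a catalytic subunit of this phosphatase, went the other way, with a log2 change of 0.52 that did not pass (adjusted p = 0.0736). The higher genes were CNKSR2, a scaffold named for its link to the kinase suppressor of RAS, with a log2 change of 1.23, and ARRB1, a beta-arrestin that can hold RAF, MEK and ERK together, with one of 1.14 (adjusted p of 0.0107 and 0.0268). LAMTOR2, PPP1CA, PPP1CB and ARRB1 were named after their values were seen.

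Of 11 tested ERK substrate kinases and ETS factors, 2 were lower and none was higher (18.2%, against 11.5% of all). ELK3, an ETS factor that ERK phosphorylates, had intensities of 38.2, 40.8 and 37.5 in SALL4-sh, against 75.8, 77.1 and 82.5 in Scr-sh. Its groups were tight and apart (log2 change -1.02 ± 0.15, adjusted p = 0.00393). RPS6KA3, the ribosomal S6 kinase RSK2 that ERK activates, had a log2 change of -0.89 (adjusted p = 0.0249), a call that was lost whichever array was left out (adjusted p of 0.0594 to 0.102). Among 17 tested genes that ERK signaling induces, 2 were higher and none was lower, 11.8% against the 11.5% of all genes. DUSP6, the phosphatase that inactivates ERK in the cytoplasm, had 118, 146 and 135 in SALL4-sh and 59.4, 87.1 and 59.8 in Scr-sh (log2 change 0.97, adjusted p = 0.0151). ETV1, an ETS factor among the targets of ERK signaling, had a log2 change of 0.71 (adjusted p = 0.0395).

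Other MAP kinase modules, which carry stress signals, held 2 higher and 1 lower gene of 12 tested. Of all tested genes, 11.5% were called. MAPK8 and MAPK9 encode the kinases JNK1 and JNK2. MAPK8 had intensities of 48.4, 57.2 and 55.0 in SALL4-sh, against 21.6, 30.5 and 19.1 in Scr-sh (log2 change 1.20, adjusted p = 0.00677). MAPK9 had 65.0, 69.1 and 71.5 in SALL4-sh, against 133, 129 and 125 in Scr-sh (log2 change -0.91, adjusted p = 0.00580). The pair thus changed in opposite directions with no overlap of groups, which was the case for 28.9% of the tested genes counting both directions. MAP2K4, which phosphorylates both JNK proteins, had a log2 change of 1.05 (adjusted p = 0.0207). Of 14 tested genes listed as RAS effectors outside RAF, 1 was higher and 1 lower (14.3%, against 11.5% of all). TIAM1, an exchange factor for RAC that binds RAS, was higher with a log2 change of 1.25 (adjusted p = 0.00778). GRB10 was lower with one of -1.19 (adjusted p = 0.00811), a value limited by the floor, at which 2 SALL4-sh arrays stood. GRB10 is an adaptor of the insulin and IGF1 receptors and not a RAS effector.

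The genes whose log2 values followed those of ARAF most closely over the 6 arrays, each gene centred on its own mean, were MYADM, TMEM208 and GIT1, with root mean square differences of 0.03, 0.05 and 0.06 on the log2 scale. MYADM had intensities of 169, 136 and 154 in SALL4-sh, against 285, 249 and 325 in Scr-sh. With 13803 genes to choose from and 6 arrays, close matches of this kind are a description only.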

How the data were processed

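Expression was measured on 1 array for each of 3 SALL4-sh and 3 Scr-sh samples. The authors deposited the normalized intensity of 32321 probe sets. RMA, a method of background correction, normalization and probe summary, stands in the submitters' processing notes without a version. The deposited intensity is linear with a floor of 8, which hides differences between weak signals. Arrays have no read depth, so their number limits the precision. Labels and methods of the study differ on RNA extraction and serum.

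Values were put on the log2 scale. The platform annotation gave 1 symbol to 19158 probe sets, several to 1388 and none to 11775, and identifiers of RefSeq genes on GRCh38.p14 changed 0 of the symbols. A gene was represented by its brightest probe set on average. The test left out genes whose mean log2 intensity did not exceed its 25th percentile, which corresponds to a linear intensity of 8.28. This filter was taken as the main setting with counts of calls with and without it already known. Genes at or near the floor show little or no spread. For limma, eBayes estimated 5.33 prior degrees of freedom with the filter, 2.35 when only the 3893 genes that never left the floor were dropped, and 0.422 with every gene. SALL4-sh was compared with Scr-sh by limma 3.58.1 under R 4.3.3 (eBayes after lmFit, p-values adjusted by Benjamini-Hochberg over the 13803 genes tested, threshold 0.05). Single values were also tested by an exact two-sided permutation test, with 20 ways to label the arrays. The fit was checked on simulated data. Alternatives were no filter, stricter filters, other normalizations and variance models, the study's one-way ANOVA, a replicate block, and each array left out in turn.

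The members, gene lists and tests were chosen with earlier results of these data known. The text names all members, up to 4 called genes a list by smallest adjusted p, and the 3 genes nearest to the member with the largest change. Names outside this rule are marked, except SOS1, which stands beside SOS2, and the cell type markers.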

Additional observations from a re-analysis of the deposited data

How the results depend on the processing

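Directions were stable and calls were not. Each of the 5 members, SALL4, the 21 called genes around the cascade and the ratio of MAP2K1 to MAP2K2 kept its direction under every alternative run. ARAF and MAP2K1 both passed after median centring, cyclic loess, repeated quantile normalization, a filter at the 50th percentile, eBayes with trend and robust, array weights and averaged probe sets, and with 2 filters chosen after seeing the data, genes never at the floor and all genes but those at the floor on all arrays. With no filter, ARAF (log2 fold change -0.87, adjusted p = 0.0666 from limma) and MAP2K1 (log2 fold change 0.78, adjusted p = 0.119 from limma) did not pass, and 218 genes were higher and 244 lower over all genes, with 6 called around the cascade. The methods' one-way ANOVA with the same adjustment also called neither (log2 fold changes -0.87 and 0.78, adjusted p of 0.0840 and 0.134), and called 113 genes higher and 144 lower over all genes and 5 around the cascade. The cause was not tested. With 1 array left out, which also leaves fewer samples, the log2 fold change was -0.96 to -0.77 for ARAF and 0.66 to 0.89 for MAP2K1, the counts over all genes were 185 to 911 higher and 306 to 676 lower, and 9 to 20 genes were called around the cascade. SALL4 passed each time (adjusted p of 0.00504 to 0.0189 from limma). Deviations from the group mean correlated weakly between arrays of the same replicate number (0.10, 0.09 and 0.01). Arrays of unlike number were not compared, so these values do not settle whether the numbers pair the arrays. With the replicate number as a block, ARAF had an adjusted p of 0.0173 and MAP2K1 one of 0.0365, with 903 genes higher and 803 lower, and 23 were called around the cascade.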

Other observations

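RRAS, a RAS-like GTPase that regulates integrin adhesion and was named after its values were seen, had intensities of 76.2, 73.1 and 65.9 in SALL4-sh and 411, 57.6 and 266 in Scr-sh. Scr-sh replicate 2 lay below all SALL4-sh arrays and the other Scr-sh arrays lay far above them (log2 change -1.37 ± 0.58, standard error, adjusted p = 0.182 from limma). The same array was the lowest of its group for MAP2K2, at 35.9 against 64.9 and 49.9 on the other Scr-sh arrays. For IFIT1, a gene of the interferon response list, it was the highest, at 1112 against 681 and 540. Whether these values share a cause was not tested.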
